A study of Homo sapiens with 36 samples.

Results

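The genes described here are 38 genes of the endoplasmic reticulum (ER) folding machinery and of the unfolded protein response, taken as a listed set and found by symbol among the 57500 gene IDs of the count table. They comprise 9 lumenal chaperones and cochaperones of BiP, 2 lectin chaperones, 8 enzymes that form disulfide bonds or isomerize prolines, 12 genes of ER-associated degradation (ERAD), and 7 sensors, transcription factors and other ER proteins. The rule that lists them uses no measured value, although the list was drawn up with earlier results of these data known. Their mRNA was measured by sequencing of polyadenylated RNA in FLO1 and OE33, 2 human cell lines derived from esophageal adenocarcinoma.

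Each line had been stably transduced with a non-targeting hairpin (shControl) or with shAPE1#1 or shAPE1#3, hairpins directed at the DNA repair protein APE1, whose gene is APEX1. Some cells of each kind stayed unexposed, and the others were given acidic bile salts (ABS), a mixture that imitates reflux, with 20 min of contact at pH 4 and 200 µM, and were collected after recovering for 6 h. The 12 groups were therefore FLO1 shControl, FLO1 shAPE1#1, FLO1 shAPE1#3, OE33 shControl, OE33 shAPE1#1 and OE33 shAPE1#3, each without and with ABS, and each had 3 libraries given as independent biological replicates. All cells carried an shRNA vector, including the controls. The culture medium was DMEM for FLO1 but RPMI1640 for OE33, so line and medium cannot be told apart. The question was how the ABS response of these genes differed between lines and between cells with and without APE1.

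Proteins that enter the secretory pathway fold in the ER with the help of BiP (HSPA5), its J-domain partners, the lectin chaperones and the protein disulfide isomerases. When unfolded proteins accumulate, 3 sensors in the ER membrane respond. ATF6 is cleaved into a transcription factor that raises chaperone genes, IRE1 (ERN1) splices XBP1 mRNA into the form that encodes an active factor for ERAD and secretory genes, and PERK (EIF2AK3) slows translation and favours ATF4 and CHOP. Gene-level counts show the amount of these mRNAs, and show neither sensor cleavage or phosphorylation nor XBP1 splicing. Bile acids and acid are known stressors of esophageal epithelium.

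Library totals ran from 20.7 to 40.7 M counts (1e6 reads assigned to genes), with a median of 27.6 M. APEX1 checked the labels: it stood at 184.1 to 192 counts per 1e6 counts (CPM) in unexposed FLO1 shControl libraries and at 24.21 to 37.03 CPM with either hairpin, and at 200.3 to 210.6 CPM in OE33 shControl libraries against 22.47 to 27.71 CPM. The epithelial label held in OE33, where EPCAM had a median of 590 CPM and KRT19 of 9963 CPM over 18 libraries. FLO1 had KRT8 (median 1542 CPM) and KRT18 (1068 CPM), but EPCAM at a median of 0.670 CPM and the mesenchymal filament gene VIM at 2923 CPM, which was at most 7.5 CPM in OE33. The other epithelial markers CDH1, KRT19 and CLDN4 had medians of 9.07, 9.89 and 13.3 CPM in FLO1. Other mesenchymal markers did not follow VIM there: COL1A1 had a median of 22.5 CPM, and COL1A2, PDGFRB and DCN of 0.055, 0.262 and 0 CPM. Markers of immune and endothelial cells stayed under 1 CPM, except CD68 at 0.986 to 3.91 CPM. With ABS, CLDN4 and VWF rose in FLO1 shControl, CLDN4 rose in FLO1 shAPE1#1, COL1A1 rose and EPCAM fell in OE33 shControl, and no other marker passed the test. Replicate 2 of FLO1 shControl with ABS stood apart from its 2 mates (chi-square per degree of freedom 77.7 and 43.5 over genes, against 26.3 or less in all other pairs outside its group), and results in that group are also given without it.

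The promoters of several of these genes carry short elements through which ATF6 and XBP1 are known to act. RefSeq promoter windows (GRCh38.p14, 250 bases before to 50 after the annotated start) were found for 35 of the 38 genes and for 27305 genes in all. The ER stress response element (ERSE: CCAAT, 9 bases, CCACG, on either strand) occurred in the windows of 8 of the 35 genes (22.9%) and of 25 of all genes (0.0916%). The related ERSE-II (ATTGG, 1 base, CCACG) occurred in 3 of the 35 (8.57%) and in 19 of all genes (0.0696%). The stretches below were chosen from genes called with ABS in at least 1 group, as described next. CALR, which also has an ERSE and was called, is not shown. The choice therefore does not tie element to response. They are written along the gene's strand with both ends of the element in capitals.
HSPA5 (chr9:125241376-125241424, minus strand, ERSE starting at -66): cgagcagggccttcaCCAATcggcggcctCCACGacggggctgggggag
XBP1 (chr22:28800588-28800636, minus strand, ERSE starting at -52): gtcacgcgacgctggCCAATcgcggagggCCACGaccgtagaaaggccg
CRELD2 (chr22:49918539-49918587, plus strand, ERSE on the opposite strand, starting at -80): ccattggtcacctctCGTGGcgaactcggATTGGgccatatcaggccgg
HSP90B1 (chr12:103930201-103930354, plus strand, ERSE at -194 and, on the opposite strand, at -89): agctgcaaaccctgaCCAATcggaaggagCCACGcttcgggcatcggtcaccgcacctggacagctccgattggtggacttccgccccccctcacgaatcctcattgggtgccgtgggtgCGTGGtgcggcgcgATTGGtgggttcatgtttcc
HERPUD1 (chr16:56932010-56932050, plus strand, ERSE-II at -117): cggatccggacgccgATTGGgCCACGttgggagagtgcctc
SDF2L1 (chr22:21642099-21642139, plus strand, ERSE-II on the opposite strand at -188): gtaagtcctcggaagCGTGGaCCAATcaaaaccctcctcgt
HYOU1 (chr11:119057259-119057408, minus strand, ERSE-II on the opposite strand at -185 and -79): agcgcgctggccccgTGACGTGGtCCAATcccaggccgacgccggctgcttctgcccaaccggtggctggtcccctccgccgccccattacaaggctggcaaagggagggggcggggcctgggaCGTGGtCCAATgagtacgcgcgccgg

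In the HYOU1 stretch the first ERSE-II overlaps the core of the UPR element, TGACGTGG, which was also searched on both strands. That core occurred in 2 of the 35 genes, HYOU1 and DNAJC10 (5.71%), and in 253 of all genes (0.927%). The C/EBP-ATF element (TGATG, 1 base, AA), which ATF4 is known to bind, occurred in CREB3L2 and HERPUD1 and at a similar share in all genes (5.71% against 4.46%). The other genes with an ERSE were CALR, which was called with ABS in 2 OE33 groups, and CANX, ERO1B and PDIA6, which were called in no group. A match describes letters in these windows and does not show that a factor was bound.

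Exposure to ABS raised a set of these genes in every line and hairpin group, and the main edgeR fit called none lower. Under some alternative settings 4 genes were called lower, namely DNAJB9 in OE33 and ATF6, ERO1A and WFS1 in 1 group each, and their values are given where each is described or with the processing. In FLO1 shControl, 14 of 38 genes rose (36.8%), against 3.00% of all 16868 genes called in either direction and 2.48% called higher. In FLO1 shAPE1#1, 12 rose (31.6%; background 5.01%, higher 2.94%), and in FLO1 shAPE1#3, 14 rose (36.8%; background 1.81%, higher 1.53%). In OE33, where 37 of the genes passed the filter on low counts, 15 rose in shControl (40.5%; background 8.40% of 15540 genes, higher 5.89%), 13 in shAPE1#1 (35.1%; background 4.73%, higher 3.02%) and 11 in shAPE1#3 (29.7%; background 2.26%, higher 1.76%). A gene was called when edgeR's quasi-likelihood test gave a Benjamini-Hochberg adjusted p under 0.05 over all genes tested, and "rose" and "fell" mean such a call. The median log2 change over the tested members was 0.244, 0.294 and 0.238 in FLO1 shControl, shAPE1#1 and shAPE1#3 and 0.19, 0.195 and 0.166 in the same order in OE33, while the median of all genes was between -0.008 and -0.001. Without replicate 2 of FLO1 shControl with ABS, 20 of 38 genes were called in that group (52.6%; 5.31% of 17378 genes in that fit), among them the 14 above. The 6 that were added were HSP90B1, DNAJC3, ERO1B, EDEM1, DERL2 and SELENOS.

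Summed over the 38 genes, the level was 7378 to 7919 CPM over the 9 unexposed FLO1 libraries and 9318 to 10113 CPM over the 9 exposed ones. In OE33 the sum ran from 7252 to 7782 CPM without and from 8971 to 9888 CPM with ABS. Exposed and unexposed libraries did not overlap in either line. These sums were not tested, and in bulk RNA fewer cells of a kind and less RNA per cell cannot be told apart. On a scale that divides by gene length as well as depth (RPKM), the most abundant of the genes in unexposed FLO1 shControl cells was CALR at a level of 447.7 RPKM, followed by HSPA5 at 318.7, PPIB at 187.9 and HSP90B1 at 123.3 RPKM, and the sensor gene ERN1 was lowest at 1.11 RPKM. In unexposed OE33 shControl cells CALR stood at 293.8, HSP90B1 at 199.0 and HSPA5 at 168.3 RPKM, and ERO1B (0.167 RPKM) and DERL3 (0.0174 RPKM) were lowest.

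**Figure D1:**
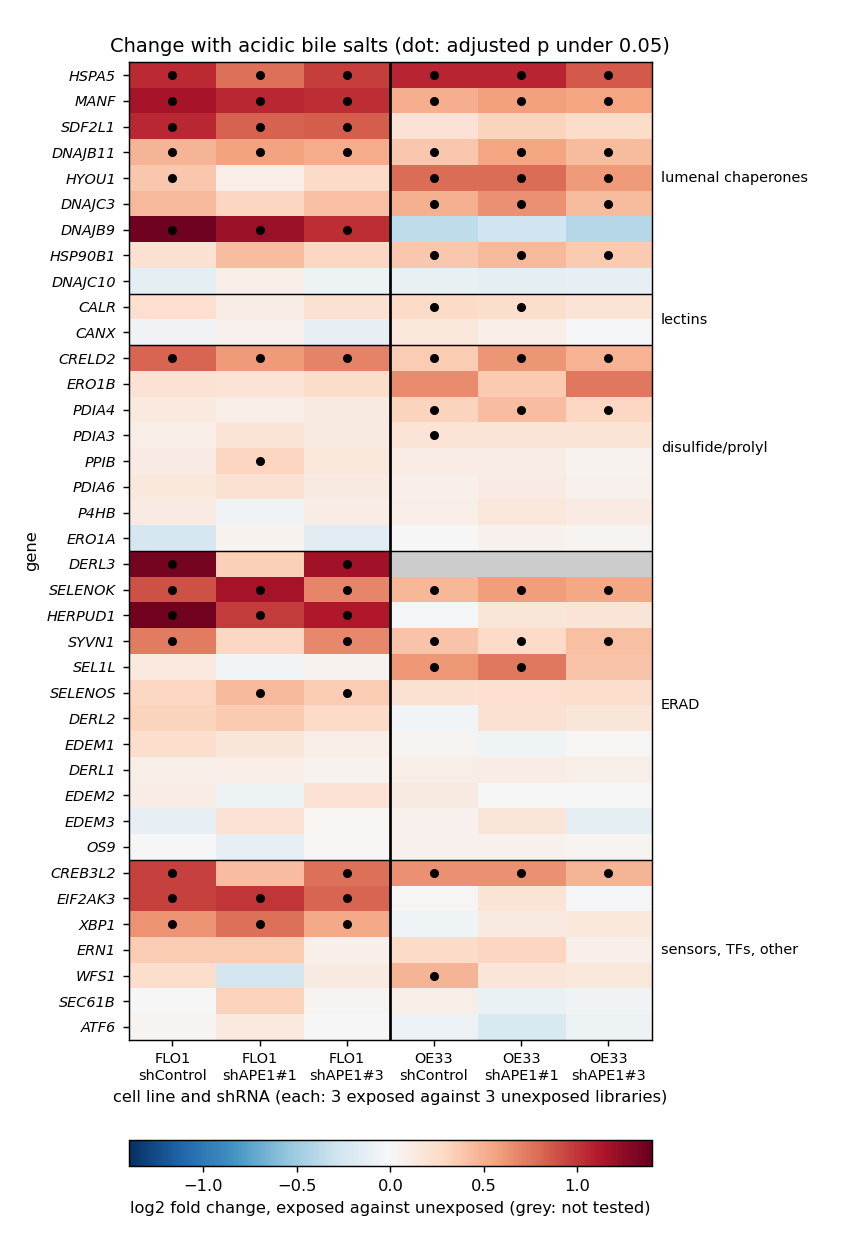
Change with ABS of the 38 genes (rows, grouped by role) in the 6 line and hairpin groups (columns), as log2 fold change of 3 exposed against 3 unexposed libraries. Dots mark calls at an adjusted p under 0.05 and grey marks DERL3 in OE33, which was not tested. HSPA5, MANF, DNAJB11, CRELD2 and SELENOK have a dot in all 6 columns, and DNAJB9, HERPUD1, SDF2L1, XBP1 and EIF2AK3 in the 3 FLO1 columns alone.

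The chaperones of the ER lumen had the largest share of members called in each group: 6, 5 and 5 of 9 rose in FLO1 shControl, shAPE1#1 and shAPE1#3, and 6 of 9 in each OE33 group. HSPA5 (ENSG00000044574; GRCh38 chromosome 9, 125234853 to 125241330, minus strand) encodes BiP, the HSP70 of the ER that also holds the 3 sensors inactive. Unexposed FLO1 shControl libraries had 1240, 1267 and 1229 CPM, and exposed ones 2672, 2514 and 2529 CPM. In FLO1 shAPE1#1 HSPA5 went from 1234, 1240 and 1279 CPM to 2312, 2011 and 2148 CPM. In FLO1 shAPE1#3 it went from 1184, 1256 and 1249 CPM to 2353, 2448 and 2440 CPM. Every exposed FLO1 library was above every unexposed one, and the level without ABS was about the same with each hairpin. In OE33 shControl HSPA5 had 676.4, 647.9 and 649.1 CPM without and 1397, 1369 and 1348 CPM with ABS. With shAPE1#1 the OE33 values were 781.8, 755.2 and 756.1 against 1683, 1615 and 1496 CPM, and with shAPE1#3 they were 815.5, 824.9 and 804.6 against 1490, 1472 and 1470 CPM. OE33 held a lower HSPA5 level than FLO1 in every group, and its exposed and unexposed libraries were separate too. The fold change was 2.06, 1.71 and 1.96 in FLO1 shControl, shAPE1#1 and shAPE1#3 and 2.09, 2.09 and 1.82 in OE33, with log2 changes from 0.77 to 1.07 (SE of 0.056 to 0.074) and adjusted p from 4.88e-12 to 3.54e-07. Between lines the log2 response differed by 0.01 in shControl (95% interval -0.16 to 0.18, adjusted p = 1), by 0.28 in shAPE1#1 (0.11 to 0.45, adjusted p = 0.0547) and by -0.12 in shAPE1#3 (-0.29 to 0.06).

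MANF (ENSG00000145050; chromosome 3, 51385047 to 51389397, plus strand), a small secreted protein that binds BiP, was called in all 6 groups. It had 33.09, 33.04 and 33.19 CPM in unexposed FLO1 shControl and 80.24, 62.26 and 79.33 CPM after ABS. OE33 shControl went from 57.87, 52.13 and 52.64 CPM to 79.4, 74.61 and 77.83 CPM. FLO1 started lower and reached the same range as OE33. MANF in FLO1 shAPE1#1 had 31.37, 31.22 and 31.19 CPM without and 74.52, 59.62 and 61.96 CPM with ABS, and in FLO1 shAPE1#3 32.88, 31.06 and 35.87 CPM without and 63.3, 70.45 and 70.76 CPM with ABS. MANF in OE33 shAPE1#1 had 42.59, 46.05 and 55.37 CPM without and 75.99, 71.16 and 66.41 CPM with ABS, and in OE33 shAPE1#3 42.49, 47.99 and 42.14 CPM without and 66.13, 71.39 and 56.27 CPM with ABS. In all 4 of these groups the exposed libraries were all above the unexposed ones. The log2 change was 1.16 ± 0.107 (standard error, SE) in FLO1 shControl and 0.51 ± 0.092 in OE33 shControl, and 1.03 to 1.05 and 0.55 to 0.57 with the APE1 hairpins. MANF responded less in OE33 by 0.65 on the log2 scale in shControl (adjusted p = 0.00844; 0.0648 in the alternative that weakened it most).

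DNAJB11, a J-domain partner that passes clients to BiP, rose in all 6 groups too, by 0.37 to 0.56 on the log2 scale. It went from 60.07, 69.69 and 57.68 to 98.33, 75.27 and 88.3 CPM in FLO1 shControl, where replicate 2 with ABS came closest to the unexposed range. OE33 shControl was tighter, with 109.9, 109.7 and 110.0 CPM without and 142.3, 138.9 and 144.6 CPM with ABS. Exposed and unexposed shControl libraries did not overlap in either line. DNAJB11 in FLO1 shAPE1#1 had 56.66, 53.14 and 57.76 CPM without and 89.1, 78.63 and 81.88 CPM with ABS, and in FLO1 shAPE1#3 55.73, 56.61 and 61.39 CPM without and 81.26, 83.67 and 83.96 CPM with ABS. DNAJB11 in OE33 shAPE1#1 had 96.73, 90.8 and 107.7 CPM without and 156.6, 145.8 and 129.1 CPM with ABS, and in OE33 shAPE1#3 97.54, 104.9 and 97.88 CPM without and 137.2, 139.7 and 129.1 CPM with ABS. In all 4 of these groups the exposed libraries were all above the unexposed ones. In FLO1 shControl its call (adjusted p = 0.00736) was lost in 3 of 12 alternatives, with an adjusted p of up to 0.339.

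DNAJB9 (ERdj4; ENSG00000128590; chromosome 7, 108569568 to 108574850, plus strand), a J-domain protein known as an XBP1 target and as a repressor of IRE1, divided the lines. FLO1 shControl had 9.98, 11.91 and 9.74 CPM without and 34.6, 19.02 and 27.65 CPM with ABS. In FLO1 shAPE1#1 it went from 11.66, 10.57 and 11.51 to 29.07, 23.52 and 25.96 CPM, and in FLO1 shAPE1#3 from 9.70, 9.28 and 9.45 to 17.6, 20.2 and 20.66 CPM. All exposed FLO1 libraries were above all unexposed ones. In OE33 shControl the order was the other way, from 20.84, 18.39 and 21.28 CPM to 15.13, 14.43 and 17.47 CPM. OE33 shAPE1#3 gave 17.39, 18.83 and 16.48 against 12.12, 13.87 and 13.79 CPM, again without overlap, while in OE33 shAPE1#1 (18.91, 13.7 and 20.1 against 14.56, 16.59 and 12.45 CPM) the libraries overlapped. In FLO1 the log2 change was 1.36 ± 0.156, 1.21 ± 0.154 and 1.04 ± 0.155 in shControl, shAPE1#1 and shAPE1#3 (adjusted p 7.02e-06, 2.66e-05 and 3.17e-04). In OE33 it was -0.36 ± 0.123, -0.28 ± 0.126 and -0.40 ± 0.127, and none was called (adjusted p 0.0729, 0.207 and 0.106). Some alternative settings called the OE33 decrease, which is given with the processing. The line difference itself, OE33 minus FLO1, was -1.73 in shControl (95% interval -2.13 to -1.32, adjusted p = 6.84e-07), and -1.5 and -1.44 with shAPE1#1 and shAPE1#3.

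SDF2L1, a partner of ERdj3 in BiP complexes, rose in FLO1 from 71.52, 62.35 and 71.07 to 128.5, 166.1 and 132.5 CPM in shControl. OE33 shControl libraries overlapped, with 93.23, 92.45 and 78.22 CPM without and 113.2, 91.48 and 98.23 CPM with ABS. SDF2L1 in FLO1 shAPE1#1 had 64.18, 60.17 and 59.9 CPM without and 137.6, 97.8 and 94.9 CPM with ABS, and in FLO1 shAPE1#3 65.9, 58.57 and 60.53 CPM without and 104.3, 124 and 106.6 CPM with ABS. SDF2L1 in OE33 shAPE1#1 had 79.99, 101.3 and 85.39 CPM without and 119.4, 89.79 and 120 CPM with ABS, and in OE33 shAPE1#3 82.51, 86.47 and 87.84 CPM without and 97.65, 113.8 and 93.7 CPM with ABS. With the APE1 hairpins, exposed SDF2L1 libraries were all above the unexposed ones in both FLO1 groups and in OE33 shAPE1#3, and overlapped in OE33 shAPE1#1. SDF2L1 moved by 1.05, 0.83 and 0.85 on the log2 scale in FLO1 shControl, shAPE1#1 and shAPE1#3 and by 0.20, 0.31 and 0.25 in OE33, where no call was made. HYOU1, the large HSP70 that exchanges nucleotide on BiP, had the opposite emphasis. In OE33 shControl it went from 167.8, 165.5 and 166.7 to 292.5, 282.9 and 280.3 CPM, a tight and separate pair of triplets. FLO1 shControl went from 475.5, 436.6 and 501.6 to 556.9, 718.5 and 572.4 CPM, and its highest value was replicate 2. HYOU1 in FLO1 shAPE1#1 had 467.9, 457.3 and 482.2 CPM without and 506.4, 499.4 and 506.7 CPM with ABS, and in FLO1 shAPE1#3 486.1, 516.9 and 484.6 CPM without and 631.3, 565.7 and 595.8 CPM with ABS. HYOU1 in OE33 shAPE1#1 had 185.1, 185.3 and 170.9 CPM without and 326.1, 297.3 and 307.9 CPM with ABS, and in OE33 shAPE1#3 197.2, 192.4 and 211.8 CPM without and 300.8, 282.8 and 319.8 CPM with ABS. In all 4 of these groups the exposed libraries were all above the unexposed ones. For HYOU1 the log2 change was 0.78, 0.79 and 0.59 in OE33 shControl, shAPE1#1 and shAPE1#3, all called, and 0.38, 0.09 and 0.27 in FLO1, called in shControl alone (adjusted p = 0.0161, lost in 3 of 12 alternatives). The line difference was called for HYOU1 in shAPE1#1 cells (0.68, adjusted p = 9.83e-05).

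DNAJC3 (p58IPK, a J-domain cochaperone and PERK inhibitor) and HSP90B1 (GRP94, the HSP90 of the ER) rose in the 3 OE33 groups. In OE33 shControl DNAJC3 went from 34.13, 39.69 and 42.84 to 55.05, 54.1 and 55.67 CPM and HSP90B1 from 916.7, 921.7 and 965.2 to 1182, 1234 and 1209 CPM. In FLO1 shControl the exposed libraries of both genes were spread by replicate 2, which held 41.97 CPM of DNAJC3 against 66.8 and 61.55 CPM in its mates, and 490.2 CPM of HSP90B1 against 815.6 and 713.3 CPM. The FLO1 log2 changes were 0.30 to 0.46 for DNAJC3 and 0.21 to 0.43 for HSP90B1, with adjusted p of 0.0516 or more. Without that library both were called in FLO1 shControl, DNAJC3 at 0.64 and HSP90B1 at 0.41. The DNAJC3 call in OE33 shAPE1#3 was lost in 4 of 12 alternatives. DNAJC10 (ERdj5, a J-domain reductase) was not called in any group, at -0.12 to 0.09 on the log2 scale.

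**Figure D2:**
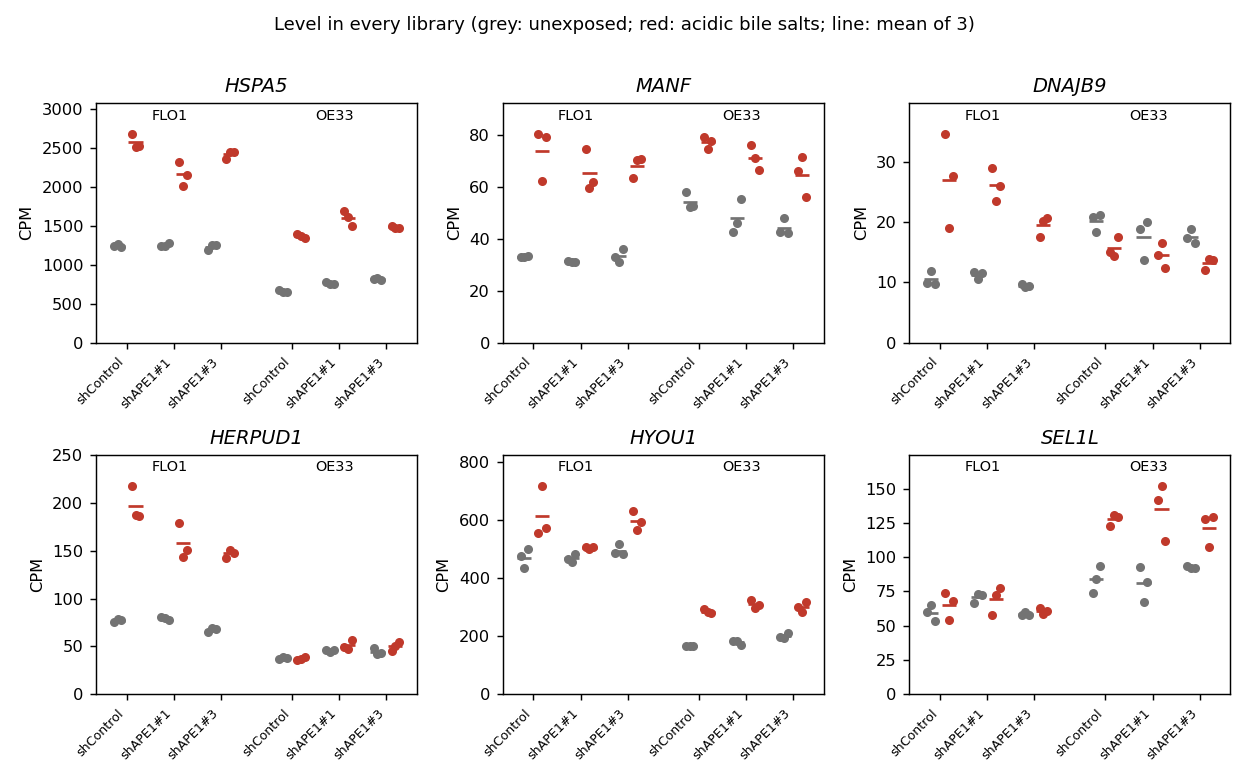
Level (CPM, linear axis from 0) of 6 genes in each of the 36 libraries, by line and hairpin; grey points are unexposed, red points are exposed to ABS, and bars are means of 3. HSPA5 is separate between exposed and unexposed libraries in both lines, DNAJB9 and HERPUD1 are higher with ABS in FLO1 and are not called in OE33, and SEL1L lies higher with ABS in OE33.

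Of the lectin chaperones, CALR (calreticulin) rose in OE33 shControl by 0.27 ± 0.062 and in OE33 shAPE1#1 by 0.25 ± 0.062 on the log2 scale, from 835.2, 794.5 and 763.0 to 994.6, 960.3 and 927.4 CPM in the former. The latter call was lost in 5 of 12 alternatives. CALR was not called in FLO1 (0.11 to 0.23). CANX (calnexin) was not called in any group, with log2 changes from -0.11 to 0.15.

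Among the 8 disulfide and prolyl isomerase genes, CRELD2, a secreted protein of the ER with disulfide isomerase activity, was called in all 6 groups. It went from 52.54, 47.16 and 54.88 to 78.28, 110.8 and 83.44 CPM in FLO1 shControl and from 72.5, 79.79 and 71.91 to 104.1, 88.62 and 94.17 CPM in OE33 shControl. No exposed shControl library fell within the unexposed range of its line. CRELD2 in FLO1 shAPE1#1 had 51.49, 48.55 and 51.06 CPM without and 94.98, 69.41 and 65.3 CPM with ABS, and in FLO1 shAPE1#3 51.77, 49.5 and 47.86 CPM without and 78.49, 88.53 and 74.67 CPM with ABS. CRELD2 in OE33 shAPE1#1 had 61.93, 73.28 and 67.53 CPM without and 112.3, 92.39 and 105.6 CPM with ABS, and in OE33 shAPE1#3 60.55, 69.39 and 63.5 CPM without and 87.75, 93.74 and 89.84 CPM with ABS. In all 4 of these groups the exposed libraries were all above the unexposed ones. CRELD2's log2 change was 0.59 to 0.81 in FLO1 and 0.36 to 0.62 in OE33. PDIA4 (ERp72) rose in the 3 OE33 groups by 0.29 to 0.43, from 394.5, 398.6 and 382.9 to 483.9, 484.8 and 484.2 CPM in shControl, and moved by 0.10 to 0.14 in FLO1 without a call. PDIA3 (ERp57, the isomerase of glycoproteins) was called in OE33 shControl alone at 0.19, a call that 8 of 12 alternatives lost, and PPIB (cyclophilin B) in FLO1 shAPE1#1 alone at 0.30, which 5 of 12 lost. PDIA6 (ERp5), P4HB (PDI itself) and the oxidases ERO1A and ERO1B were called in no group. The largest estimate among these, ERO1B in OE33 shAPE1#3 at 0.74 ± 0.418, came from levels of 0.308 to 1.15 CPM and overlapping libraries.

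The ERAD genes recognise misfolded proteins, pass them through the membrane and tag them with ubiquitin. Of these, 4, 3 and 5 of 12 rose in FLO1 shControl, shAPE1#1 and shAPE1#3, and 3, 3 and 2 of 11 in OE33. SELENOK, a selenoprotein of the ER membrane that binds the derlins, was the ERAD gene called in all 6 groups. It had 14.28, 14.3 and 12.39 CPM in unexposed FLO1 shControl and 30.54, 17.8 and 27.5 CPM after ABS, with replicate 2 again nearest to the unexposed libraries. OE33 shControl went from 12.74, 13.52 and 13.04 to 16.67, 19.35 and 18.16 CPM. The shControl libraries did not overlap in either line. SELENOK in FLO1 shAPE1#1 had 14.84, 16.49 and 15.34 CPM without and 38.8, 30.02 and 36.55 CPM with ABS, and in FLO1 shAPE1#3 11.34, 10.2 and 11.72 CPM without and 16.96, 19.32 and 17.16 CPM with ABS. SELENOK in OE33 shAPE1#1 had 12.3, 12.36 and 14.51 CPM without and 19.61, 21.48 and 17.52 CPM with ABS, and in OE33 shAPE1#3 12.42, 13.94 and 11.01 CPM without and 19.04, 19.73 and 15.36 CPM with ABS. In all 4 of these groups the exposed libraries were all above the unexposed ones. SELENOK's log2 change was 0.68 to 1.16 in FLO1 and 0.46 to 0.58 in OE33, and each of 5 of the 6 calls was lost in at least 1 alternative.

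HERPUD1 (HERP; ENSG00000051108; chromosome 16, 56932048 to 56944863, plus strand), a membrane protein that organises the ERAD ligase complex, rose in FLO1 from 75.83, 78.19 and 77.15 to 217.7, 187.7 and 186.1 CPM in shControl. With shAPE1#1 FLO1 went from 81.24, 80.02 and 77.95 to 179.1, 143.9 and 151.0 CPM and with shAPE1#3 from 65.07, 69.17 and 67.9 to 142.6, 151.3 and 147.9 CPM. OE33 shControl held 36.51, 39.36 and 37.88 CPM without and 36.19, 36.84 and 38.73 CPM with ABS. FLO1 libraries were fully separate and OE33 shControl libraries overlapped. HERPUD1 in OE33 shAPE1#1 had 46.11, 43.66 and 46.61 CPM without and 49.51, 47.16 and 56.34 CPM with ABS, and in OE33 shAPE1#3 48.69, 41.71 and 42.99 CPM without and 45.16, 50.73 and 54.51 CPM with ABS. In OE33 shAPE1#1 the exposed libraries were all above the unexposed ones, and in OE33 shAPE1#3 they overlapped. The log2 change was 1.35 ± 0.089, 0.97 ± 0.088 and 1.12 ± 0.088 in FLO1 (adjusted p 1.71e-09, 1.80e-07 and 3.30e-08) and -0.02, 0.17 and 0.18 in OE33, uncalled. The line difference was -1.38 (95% interval -1.62 to -1.15, adjusted p = 3.06e-10) in shControl, -0.82 in shAPE1#1 and -0.95 in shAPE1#3.

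SYVN1 (HRD1), the ubiquitin ligase of ERAD, rose in 5 of the 6 groups, by 0.73 and 0.67 in FLO1 shControl and shAPE1#3 and by 0.27 to 0.42 in OE33. Its call in OE33 shAPE1#1 (0.27) was lost in 7 of 12 alternatives, with an adjusted p of up to 0.265, and those in FLO1 shControl and shAPE1#3 in 1 and 2. FLO1 shControl went from 48.38, 41.87 and 52.7 to 65.7, 103.7 and 69.53 CPM, where the highest value is replicate 2, and OE33 shControl from 54.42, 51.05 and 53.91 to 75.94, 68.57 and 65.58 CPM. SEL1L, the subunit that stabilises SYVN1, rose in OE33 shControl (0.61 ± 0.109) and shAPE1#1 (0.74 ± 0.109) and not in shAPE1#3 (0.39, adjusted p = 0.0549). It stood at 73.81, 83.96 and 93.79 CPM without and 122.7, 131.0 and 129.4 CPM with ABS in OE33 shControl. FLO1 shControl libraries overlapped, at 59.9, 65.06 and 53.36 against 74.0, 54.26 and 67.99 CPM, and the FLO1 changes were -0.04 to 0.13. SEL1L in FLO1 shAPE1#1 had 66.55, 72.81 and 72.59 CPM without and 57.94, 72.52 and 77.55 CPM with ABS, and in FLO1 shAPE1#3 57.97, 59.73 and 57.98 CPM without and 62.95, 58.26 and 60.83 CPM with ABS. SEL1L in OE33 shAPE1#1 had 93.07, 67.34 and 82.11 CPM without and 141.5, 152 and 112.2 CPM with ABS, and in OE33 shAPE1#3 93.59, 92.27 and 92.24 CPM without and 127.8, 107.3 and 129.5 CPM with ABS. These SEL1L libraries overlapped in FLO1, and in OE33 the exposed ones were all above the unexposed ones. The difference between lines was called for SEL1L in shAPE1#1 cells (0.77, adjusted p = 0.00436).

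DERL3, an ER-stress-inducible derlin, was seen in FLO1 alone. FLO1 shControl went from 6.10, 6.63 and 8.22 to 17.25, 19.79 and 16.2 CPM and FLO1 shAPE1#3 from 8.70, 6.71 and 7.13 to 18.35, 16.79 and 16.0 CPM. FLO1 shAPE1#1 went from 5.91, 6.16 and 5.01 to 8.74, 7.15 and 5.88 CPM, with overlap. DERL3's log2 change was 1.34 ± 0.146 and 1.17 ± 0.142 in the first 2 (adjusted p 3.52e-06 and 2.35e-05) and 0.34 ± 0.152 in shAPE1#1 (adjusted p = 0.222). In OE33 no library exceeded 0.249 CPM and the gene did not pass the filter. SELENOS, a membrane partner of the ATPase that extracts ERAD clients, rose in FLO1 shAPE1#1 and shAPE1#3 by 0.45 and 0.36, the latter call being lost in 7 of 12 alternatives (adjusted p of up to 0.122). The mannosidase-like EDEM1, EDEM2 and EDEM3, the lectin OS9 and the derlins DERL1 and DERL2 were called in no group, with log2 changes from -0.12 to 0.37.

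Among the sensors and transcription factors, EIF2AK3 (PERK; ENSG00000172071; chromosome 2, 88556741 to 88627576, minus strand) rose in FLO1. It had 11.63, 12.89 and 12.8 CPM in unexposed FLO1 shControl and 25.5, 23.99 and 23.51 CPM after ABS. OE33 shControl stayed within one range, with 11.87, 12.51 and 13.46 CPM without and 12.43, 12.46 and 13.37 CPM with ABS. Unexposed shControl libraries of the lines covered the same range, and the exposed ones did not overlap. EIF2AK3 in FLO1 shAPE1#1 had 13.84, 13.34 and 13.87 CPM without and 24.18, 28.5 and 30.02 CPM with ABS, and in FLO1 shAPE1#3 12.22, 10.55 and 11.88 CPM without and 20.73, 19.97 and 20.17 CPM with ABS. EIF2AK3 in OE33 shAPE1#1 had 13.12, 9.973 and 12.01 CPM without and 13.94, 14.7 and 11.68 CPM with ABS, and in OE33 shAPE1#3 12.47, 12.79 and 14.08 CPM without and 13.18, 12.63 and 13.14 CPM with ABS. Exposed FLO1 libraries were all above the unexposed ones with both hairpins, and OE33 libraries overlapped. EIF2AK3's log2 change was 0.96, 1.0 and 0.81 (SE of 0.098 to 0.1) in FLO1 shControl, shAPE1#1 and shAPE1#3, and 0.02, 0.20 and -0.01 in OE33. The line difference was -0.95 (adjusted p = 4.63e-05), -0.82 and -0.83 in shControl, shAPE1#1 and shAPE1#3.

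XBP1 (ENSG00000100219; chromosome 22, 28794555 to 28800597, minus strand), itself an ATF6 target and the substrate of IRE1, followed the same division. FLO1 shControl went from 112.5, 123.4 and 127.4 to 192.7, 182.7 and 188.4 CPM and FLO1 shAPE1#1 from 89.1, 91.05 and 89.43 to 173.6, 146.7 and 142.0 CPM. FLO1 shAPE1#3 went from 116.0, 119.5 and 113.6 to 168.6, 173.3 and 162.6 CPM. OE33 shControl had 106.2, 102.6 and 105.8 CPM without and 98.87 to 101.7 CPM with ABS, so its exposed libraries were just below the others. XBP1 in OE33 shAPE1#1 had 95.38, 96.61 and 105.8 CPM without and 116.2, 101.9 and 107.5 CPM with ABS, and in OE33 shAPE1#3 101.7, 99.88 and 97.61 CPM without and 104.6, 112.1 and 114.1 CPM with ABS. XBP1 libraries overlapped in OE33 shAPE1#1, and in OE33 shAPE1#3 the exposed libraries were all above the unexposed ones. XBP1's log2 change was 0.63, 0.77 and 0.53 (SE of 0.082) in FLO1, and -0.06, 0.13 and 0.15 (SE of 0.065) in OE33, uncalled. The line difference was -0.7 in shControl (adjusted p = 2.37e-05) and -0.65 in shAPE1#1 (adjusted p = 6.58e-05).

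CREB3L2, a membrane-bound factor of the ATF6 kind, rose in all groups but FLO1 shAPE1#1. It went from 27.92, 28.26 and 24.63 to 55.98, 51.68 and 49.62 CPM in FLO1 shControl and from 36.43, 37.64 and 41.61 to 55.29, 61.18 and 63.53 CPM in OE33 shControl. CREB3L2 in FLO1 shAPE1#1 had 33.33, 37.39 and 34.83 CPM without and 35.69, 51.69 and 55.65 CPM with ABS, and in FLO1 shAPE1#3 29.95, 30.95 and 30.85 CPM without and 60.92, 43.32 and 52.89 CPM with ABS. CREB3L2 in OE33 shAPE1#1 had 38.47, 30.96 and 36.32 CPM without and 53.44, 57.38 and 54.23 CPM with ABS, and in OE33 shAPE1#3 42.79, 36.96 and 49.47 CPM without and 61.66, 49.44 and 68.53 CPM with ABS. CREB3L2 libraries overlapped in FLO1 shAPE1#1 and OE33 shAPE1#3, and in FLO1 shAPE1#3 and OE33 shAPE1#1 the exposed libraries were all above the unexposed ones. The log2 changes called ran from 0.48 to 0.95, and in FLO1 shAPE1#1 the change was 0.43 with an adjusted p of 0.0709. The call in OE33 shAPE1#3 was lost in 5 of 12 alternatives. ATF6 itself was called in no group by the main edgeR fit, while DESeq2 called it lower in OE33 shAPE1#1 (-0.22, adjusted p = 0.0402). It had 48.81, 48.14 and 46.14 CPM without and 54.41, 41.2 and 51.95 CPM with ABS in FLO1 shControl, and 61.03, 63.63 and 70.68 against 58.24, 64.28 and 62.01 CPM in OE33 shControl, all overlapping. ATF6 in FLO1 shAPE1#1 had 56.84, 59.12 and 58.17 CPM without and 59.79, 65.04 and 68.64 CPM with ABS, and in FLO1 shAPE1#3 47.99, 50.64 and 49.75 CPM without and 47.16, 50.92 and 50.93 CPM with ABS. ATF6 in OE33 shAPE1#1 had 78.85, 71.5 and 72.3 CPM without and 64.03, 68.79 and 59.26 CPM with ABS, and in OE33 shAPE1#3 79.22, 71.1 and 70.74 CPM without and 71.86, 69.76 and 68.15 CPM with ABS. Exposed ATF6 libraries were all above the unexposed ones in FLO1 shAPE1#1, all below them in OE33 shAPE1#1, and overlapped with them under shAPE1#3 in both lines. ERN1 (IRE1) had 11.7, 10.74 and 13.68 against 15.04, 16.81 and 14.5 CPM in FLO1 shControl and 17.21, 17.65 and 17.23 against 19.28, 22.52 and 20.7 CPM in OE33 shControl. The exposed ERN1 libraries were higher in both, but the log2 changes of 0.35 and 0.26 were not called (adjusted p 0.0986 and 0.13). ERN1 in FLO1 shAPE1#1 had 8.969, 10.12 and 9.728 CPM without and 11.09, 12.57 and 13.52 CPM with ABS, and in FLO1 shAPE1#3 10.55, 11.87 and 12 CPM without and 12.3, 11.22 and 12.58 CPM with ABS. ERN1 in OE33 shAPE1#1 had 12.76, 11.4 and 12.45 CPM without and 14.6, 15.91 and 14.46 CPM with ABS, and in OE33 shAPE1#3 14.52, 13.03 and 13.41 CPM without and 14.78, 11.67 and 16.65 CPM with ABS. Under shAPE1#1 the exposed ERN1 libraries were all above the unexposed ones in both lines, and under shAPE1#3 they overlapped. WFS1 (wolframin, an ER membrane protein) rose in OE33 shControl alone (0.47), and SEC61B, a subunit of the ER translocon, was called in no group. Over the 15 genes that no group called, the log2 change ran from -0.23 to 0.74 with a median of 0.07.

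Sorted by the branch that is best known to induce each gene, 13 genes were assigned to ATF6, 10 to IRE1 and XBP1, 1 (ERO1A) to PERK, and 14 to none. Many answer to more than 1 branch, so the assignment is a simplification. Of the ATF6 genes, 8, 6 and 7 of 13 rose in FLO1 shControl, shAPE1#1 and shAPE1#3 and 8, 8 and 6 of 12 in OE33, with median log2 changes of 0.629, 0.431 and 0.528 and of 0.332, 0.444 and 0.33. Of the IRE1 and XBP1 genes, 3, 2 and 3 of 10 rose in FLO1 and 3 of 10 in each OE33 group, with medians of 0.279, 0.296 and 0.232 and of 0.083, 0.135 and 0.051. The 3 called in FLO1 shControl were DNAJB9, DNAJB11 and SYVN1, and those in each OE33 group were DNAJB11, DNAJC3 and SYVN1. Of the 14 unassigned genes, 3, 4 and 4 rose in FLO1 and 4, 2 and 2 in OE33. No difference between branches was tested. By promoter element, 3 of the 8 ERSE genes and 3, 2 and 2 of the 3 ERSE-II genes rose in FLO1 shControl, shAPE1#1 and shAPE1#3. In OE33, 4, 4 and 3 of the 8 ERSE genes and 1 of the 3 ERSE-II genes, HYOU1, rose in the same order of hairpins. Beside these counts, 36.8%, 31.6% and 36.8% of all members rose in FLO1 and 40.5%, 35.1% and 29.7% in OE33. The ERSE genes were thus called at about the share of the members in general. No difference by element was tested.

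Which of the genes were called differed between the 2 lines. Of the 38 genes, 10 rose in all 3 FLO1 groups and 11 in all 3 OE33 groups, and 5 were in both sets: HSPA5, MANF, DNAJB11, CRELD2 and SELENOK. The other 5 of FLO1, DNAJB9, HERPUD1, SDF2L1, XBP1 and EIF2AK3, were called in no OE33 group. DNAJC3, HSP90B1 and PDIA4 were called in all 3 OE33 groups and in none of FLO1. Over the 37 genes tested in both lines, Pearson's r between the log2 changes of 2 groups was 0.86 to 0.98 within FLO1 (3 pairs), 0.90 to 0.91 within OE33 (3 pairs) and -0.03 to 0.38 between the lines (9 pairs). No 2 of these groups share a library, but within a line they share the fit, and the genes' depth and length are common to all. Neither the share of all genes called in all 3 groups of a line nor r over all genes is given here. Whether this division between the lines is particular to these genes was therefore not tested.

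The difference itself was tested in a fit of both lines. In shControl, 6 of 38 genes differed (background 1.73% of 18199 genes), all with a smaller response in OE33: DNAJB9, HERPUD1, EIF2AK3, SDF2L1, XBP1 and MANF. In shAPE1#1 cells 8 differed (background 4.86%), with DNAJB9, HERPUD1, EIF2AK3, XBP1 and MANF smaller and HYOU1, SEL1L and PDIA4 larger in OE33. In shAPE1#3 cells 3 differed (background 0.665%), namely DNAJB9, HERPUD1 and EIF2AK3, each smaller in OE33. The DNAJB9, HERPUD1 and EIF2AK3 differences were therefore called in 3 sets of libraries that have no library in common. DNAJC3 and HSP90B1, called in OE33 and not in FLO1, were not among the differences called. The line and its medium cannot be told apart here.

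**Figure D3:**
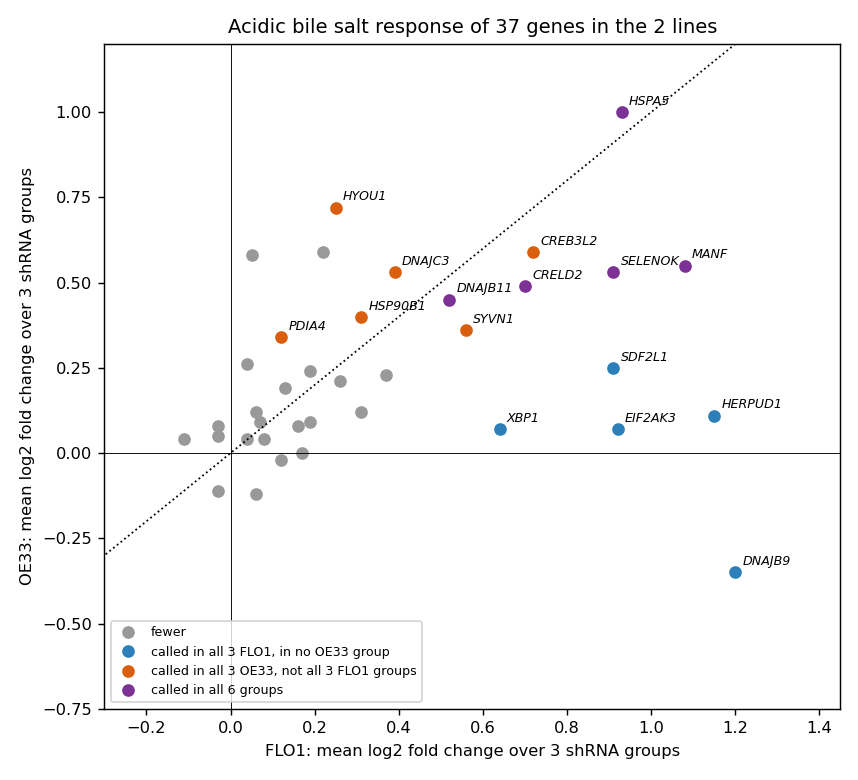
Mean log2 change with ABS over the 3 hairpin groups in FLO1 (x axis) and OE33 (y axis) for the 37 genes tested in both lines; the dotted line marks equal change. Colours mark genes called in all 6 groups (purple), in the 3 FLO1 groups and no OE33 group (blue), in the 3 OE33 and not all FLO1 groups (orange), or fewer (grey). Blue genes lie below the dotted line, DNAJB9 lowest at -0.35 in OE33 against 1.2 in FLO1, while HSPA5 (0.93 and 1.0) lies near the dotted line.

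For knockdown of APE1 alone, the main fit called at most 1 of these genes with either hairpin in FLO1. In OE33 it called them at about the share of all genes. In unexposed FLO1 cells, XBP1 was lower with shAPE1#1 (log2 -0.45 ± 0.082, adjusted p = 0.00136), at 89.1, 91.05 and 89.43 CPM against 112.5, 123.4 and 127.4 CPM in shControl. No other member was called in the main edgeR fit, while 6.74% of all genes were called. This count depended on the setting: 3 members were called by DESeq2, 2 with no filter on low counts, 9 with only the groups compared and 10 with a GC content offset. The share of all genes called under each of these settings is not given here, so these counts lack a background. With shAPE1#3 in FLO1 no member was called in the main edgeR fit (background 0.788%) or by DESeq2, and 1 was called in each of 3 other edgeR settings. At an unadjusted p under 0.05 there were 4 of 38 members in the main fit, where 9.19% of all genes passed. In OE33 more genes of every kind were called, 16.4% with shAPE1#1 and 21.7% with shAPE1#3, and the members' shares were near this background: 6 of 37 (2 higher, 4 lower) and 8 of 37 (4 higher, 4 lower). Both hairpins are set against the same 3 shControl libraries, so their values are given side by side only. HSPA5 was higher by 0.22 with shAPE1#1 and by 0.31 with shAPE1#3. EDEM1, the mannose-trimming ERAD factor, was lower by 0.68 and 0.71, from 49.52, 48.93 and 58.49 CPM in shControl to 35.98, 27.92 and 33.67 CPM and to 32.63, 31.39 and 31.44 CPM, with no overlap. ERN1 was lower by 0.51 and 0.34 and SELENOS by 0.38 and 0.38. Called with 1 hairpin only were HERPUD1 (0.26) and EDEM3 (-0.40) with shAPE1#1, and HYOU1 (0.27), CALR (0.20), WFS1 (0.34) and MANF (-0.29) with shAPE1#3. Whether these differ between hairpins was not tested, and that the 2 OE33 groups carry different hairpins rests on the labels alone. Of these calls, HERPUD1 was lost in 6 of 12 alternatives, CALR and the shAPE1#3 call of ERN1 in 5 each, and MANF and WFS1 in 3 each.

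The ABS response of these genes was not called different in APE1-depleted cells. The interaction of hairpin and ABS gave 0 members called in each of the 4 comparisons in the main edgeR fit. Of all genes, 0, 0 and 0 passed in FLO1 shAPE1#1, FLO1 shAPE1#3 and OE33 shAPE1#1 (0%) and 2 in OE33 shAPE1#3 (0.0129%). At an unadjusted p under 0.05 there were 8 of 38 and 0 of 38 members in FLO1 shAPE1#1 and shAPE1#3, where 9.57% and 2.02% of all genes passed, and 3 of 37 and 4 of 37 in OE33, where 3.58% and 3.97% did. DESeq2 called 1 member, DERL3, in FLO1 shAPE1#1 and 0 in the other 3 comparisons. A lack of calls does not show that the responses were equal. For HSPA5 the response in FLO1 differed from that of shControl by -0.27 (95% interval -0.47 to -0.06) with shAPE1#1 and by -0.07 (-0.27 to 0.13) with shAPE1#3, and in OE33 by 0.00 (-0.15 to 0.16) and by -0.20 (-0.35 to -0.05).

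Among the members, named here after their values were seen, the interaction estimate farthest from 0 was that of DERL3 in FLO1 shAPE1#1, at -1.0 ± 0.21 (95% interval -1.41 to -0.59, adjusted p = 0.134). Its exposed libraries held 8.74, 7.15 and 5.88 CPM with shAPE1#1 against 17.25, 19.79 and 16.2 CPM in shControl. With shAPE1#3 the estimate was -0.17 (-0.56 to 0.23). DERL3 was called with no filter on low counts (adjusted p = 0.00188), with a GC content offset (0.0228) and by DESeq2 (0.00732), and the adjusted p over the other alternatives was 0.0654 to 0.46. The other 7 FLO1 shAPE1#1 estimates under an unadjusted p of 0.05 were those of HSPA5, HYOU1, HERPUD1, SYVN1, CREB3L2 and WFS1, between -0.53 and -0.27, and SEC61B at 0.32.

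**Figure D4:**
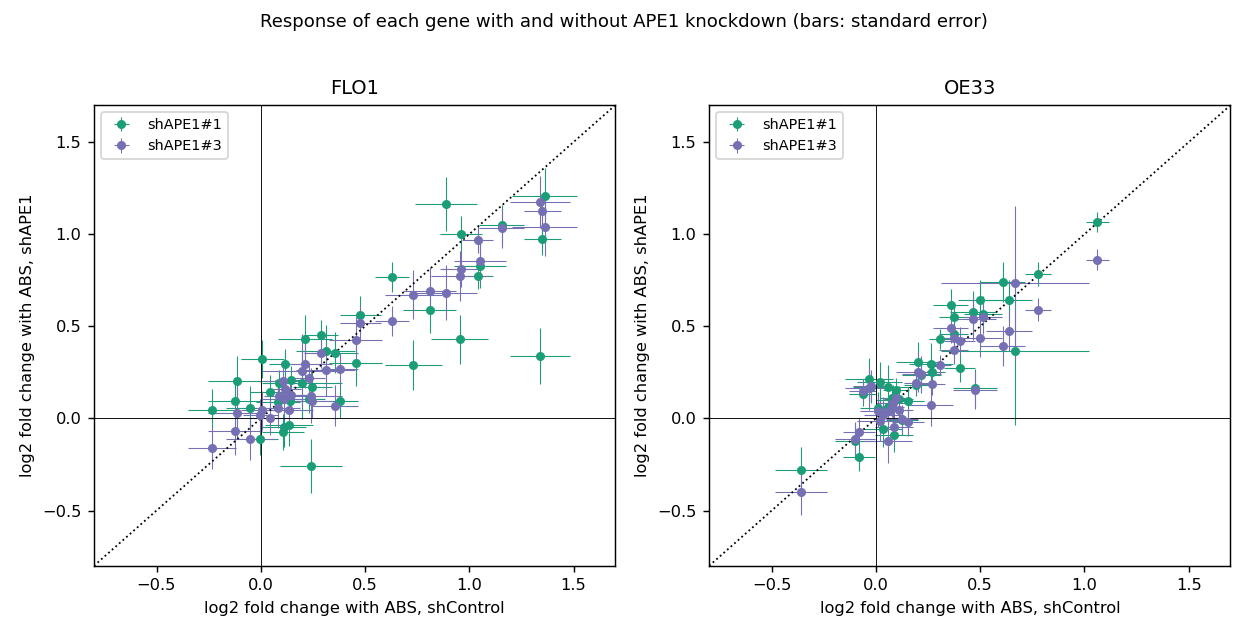
Log2 change with ABS in shControl cells (x axis) and in cells with an APE1 hairpin (y axis), for FLO1 (left, 38 genes) and OE33 (right, 37 genes); bars are standard errors and the dotted line marks equal change. Both hairpins are plotted against the same shControl values, and the point farthest below the line in FLO1 is DERL3 with shAPE1#1 (1.34 against 0.34).

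Other genes of the pathway were counted in the same fits. Beside the ABS counts of every list below, 3.00%, 5.01% and 1.81% of all genes were called in FLO1 shControl, shAPE1#1 and shAPE1#3. In OE33 the share was 8.40%, 4.73% and 2.26% in the same order. Of the PERK, ATF4 and CHOP targets, 4 rose and 1 fell of 20 in FLO1 shControl, and 3 rose and 1 fell with each APE1 hairpin. In OE33, 8 rose and 2 fell of 19 in shControl, 0 and 2 in shAPE1#1, and 2 and 1 in shAPE1#3. The list's median log2 change was -0.003, 0.082 and 0.035 in FLO1 and 0.156, -0.012 and 0.024 in OE33, beside all-gene medians between -0.008 and -0.001. DDIT3 (CHOP), the stress-induced factor of cell death, rose by 0.67 ± 0.122 in FLO1 shControl and fell by 0.39 in OE33 shControl. With shAPE1#1 and shAPE1#3, DDIT3 moved by 0.36 (not called) and 0.67 (called) in FLO1, and fell by 0.63 and 0.56 in OE33. ATF3, a stress factor downstream of ATF4, rose in both (1.4 and 1.14), with both APE1 hairpins in FLO1 and in OE33 shAPE1#3 (0.49), but was not called in OE33 shAPE1#1 (0.28). PPP1R15A (GADD34), the phosphatase subunit that reverses PERK's effect, rose in the 3 FLO1 groups (0.75 in shControl) and in OE33 shControl (0.41), and was not called in OE33 shAPE1#1 (0.07) or shAPE1#3 (0.23). ATF4 itself rose in OE33 shControl (0.51) and shAPE1#3 (0.35), and was not called in OE33 shAPE1#1 (0.20). It was not called in FLO1 shControl (-0.01), shAPE1#1 (0.27) or shAPE1#3 (0.03).

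The secretory targets of XBP1 gave 2, 3 and 1 higher and 0 lower of 26 in FLO1 shControl, shAPE1#1 and shAPE1#3, and 4, 2 and 1 higher and 0 lower in OE33, with medians of -0.023, 0.146 and 0.014 and of 0.07, 0.04 and 0.015. SEC24D, a subunit of the vesicle coat that leaves the ER, rose in all 6 groups by 0.40 to 0.71. Targets that IRE1 is known to degrade gave 1 higher of 7 in each FLO1 group (PER1) and 1, 0 and 0 higher of 5 in OE33 (COL6A1 in shControl), none lower, with medians of 0.226, -0.076 and 0.193 and of 0.112, -0.32 and -0.062. The COL6A1 estimates in OE33 had wide errors, at 6.82 ± 1.67 in shControl, -2.08 ± 1.065 in shAPE1#1 and 0.535 ± 1.16 in shAPE1#3, so that call is weak. Of other ER folding genes, 1, 0 and 1 of 28 rose in FLO1 and 3, 1 and 0 of 30 in OE33, among them the thioredoxin-like TXNDC11 (0.36 in FLO1 shControl and 0.32 in OE33 shControl), with medians between -0.034 and 0.018. Of other ERAD genes, 0 of 25 rose in each FLO1 group and 2, 1 and 0 in OE33 (medians -0.069 to 0.044), and HERPUD2 (0.24) and NPLOC4 (0.22) were those called in OE33 shControl. N-glycosylation genes gave 1, 1 and 1 higher of 27 in FLO1 and 1, 2 and 0 in OE33 (medians -0.016 to 0.037), with GMPPB at 0.63 in FLO1 shControl and GFPT1 at 0.28 in OE33 shControl. Of all genes, 2.48%, 2.94% and 1.53% were called higher in FLO1 and 5.89%, 3.02% and 1.76% in OE33. The folding and N-glycosylation counts were thus near the shares of all genes and are no result about these lists. Relatives of the sensors and their proteases gave 1, 1 and 0 higher and 0, 1 and 0 lower of 13 in FLO1 and 0 of 14 in OE33 (medians -0.133 to 0.021), and PPP1R15B (0.41) was the one higher in FLO1 shControl.

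In a list of heat shock genes, mainly of chaperones of the cytosol, most were not called. Those that were lay mainly on the higher side in FLO1 and on the lower side in OE33. Tested gene by gene, the OE33 response was called lower than that of FLO1 for 6 of 19 in shControl and higher for 0. With shAPE1#1 and shAPE1#3 it was called lower for 9 and 6 of 19, and higher for 0. The background, in either direction, was 1.73%, 4.86% and 0.665% in shControl, shAPE1#1 and shAPE1#3. The list as a whole was not tested. Of 19 heat shock genes, 7, 6 and 7 rose and 1, 1 and 1 fell in FLO1 shControl, shAPE1#1 and shAPE1#3, and of 18 in OE33, 1, 1 and 0 rose and 6, 3 and 2 fell. Their median log2 change was 0.201, 0.378 and 0.139 in FLO1 and -0.196, -0.106 and -0.09 in OE33. DNAJB1, the cytosolic J-domain partner of HSP70, rose by 1.83 in FLO1 shControl and fell by 0.41 in OE33 shControl. HSPA1A, the inducible HSP70, rose by 2.83 in the former and fell by 0.45 in the latter, with the limit that HSPA1A and HSPA1B are near-identical genes between which reads may be divided. In OE33 shAPE1#1 and shAPE1#3 HSPA1A was not called (-0.07 and 0.03), while DNAJB1 fell (-0.35 and -0.26). Both genes rose in FLO1 with either APE1 hairpin.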

How the data were processed

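Polyadenylated RNA was sequenced from 36 libraries in 12 groups of 3. The deposited values are raw counts per gene; per the submitters' processing notes, Trimmomatic 0.36, STAR 2.5.2b, featureCounts and Subread 1.5.2 were used with GRCh38. The sources used here do not state the annotation release, the strand setting or how multimapping reads were treated. All 38 genes were found by symbol after the gene IDs were matched to GENCODE; 56898 of 57500 IDs matched. The genes, branches and lists were chosen with earlier results of these data known.

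Genes were filtered with filterByExpr, scaled by TMM and tested with edgeR 4.0.16 (R 4.3.3, limma 3.58.1) by robust quasi-likelihood fits, separately for the 18 libraries of each line, and over all 36 for differences between lines. Benjamini-Hochberg adjustment covered all genes tested, and a call is an adjusted p under 0.05. Standard errors are the log2 change divided by the root of its F statistic, and 95% intervals are normal ranges from them. CPM use the TMM factors of both lines, and RPKM the union exon length. Library totals of 20.7 to 40.7 M limit precision for the genes with the lowest counts.

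Values in every library are given for the 10 genes with the largest mean ABS effect, for XBP1, ATF6, ERN1 and EIF2AK3, for up to 8 genes called in an interaction or line difference, and for genes called lower with ABS. Other genes printed by library were chosen after their values were seen, as was DERL3. Of other lists, up to 4 genes with the smallest adjusted p are named. Alternatives were RLE scaling, no filter, only the groups compared, a replicate block, a GC content offset, each replicate left out, and DESeq2 1.42.0.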

Additional observations from a re-analysis of the deposited data

Results flagged for a closer look

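The difference of the ABS response between the lines, OE33 minus FLO1 on the log2 scale, was called by its own test in edgeR for 6 genes in shControl cells. It was -1.73 for DNAJB9 (adjusted p = 6.84e-07), -1.38 for HERPUD1 (3.06e-10), -0.95 for EIF2AK3 (4.63e-05), -0.86 for SDF2L1 (0.00341), -0.7 for XBP1 (2.37e-05) and -0.65 for MANF (0.00844). In shAPE1#1 cells the response was smaller in OE33 for DNAJB9 (-1.5), EIF2AK3 (-0.82), HERPUD1 (-0.82), XBP1 (-0.65) and MANF (-0.5, adjusted p = 0.0371, lost in 9 of 18 alternatives). It was larger in OE33 for SEL1L (0.77), HYOU1 (0.68) and PDIA4 (0.32, adjusted p = 0.0194, lost in 4 of 18 alternatives). In shAPE1#3 cells the differences called were -1.44 for DNAJB9, -0.95 for HERPUD1 and -0.83 for EIF2AK3. Medium differed with the line throughout.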

How the results depend on the processing

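Of 111 effects of these genes that were called, 82 were called in every alternative, 29 were lost in at least 1, and 0 reversed. With no filter on low counts, shAPE1#1 against shControl in unexposed FLO1 cells gave 2 members called in place of 1, shAPE1#3 gave 1, and the interaction of shAPE1#1 and ABS in FLO1 gave 1. A GC content offset gave 22 with ABS in FLO1 shControl, 21 in FLO1 shAPE1#1, 10 and 1 for shAPE1#1 and shAPE1#3 in unexposed FLO1, 16 for shAPE1#3 in unexposed OE33, 1 for the interaction of shAPE1#1 in FLO1, and 15 and 6 for the line difference in shAPE1#1 and shAPE1#3. Fitting only the groups compared gave 21 with ABS in FLO1 shAPE1#1 (20 higher, 1 lower), 9 and 1 for the hairpins in unexposed FLO1, 15 for shAPE1#3 in unexposed OE33, and 8 for the line difference in shAPE1#3. DESeq2 gave 3 for shAPE1#1 in unexposed FLO1, 1 for its interaction and 5 for the line difference in shAPE1#3. These counts are given without the share of all genes called under the same setting. From these counts alone, a setting that called more genes of every kind can therefore not be told from one that moved these genes. The causes were not tested. Leaving out 1 replicate gave 12 to 20 members with ABS in FLO1 shControl, 4 to 7 for shAPE1#3 in unexposed OE33 (4 without its replicate 3), and 6 to 10 for the line difference in both shControl (10 without FLO1 shControl ABS replicate 2) and shAPE1#1. DNAJB9 was called lower with ABS in OE33 shControl with no filter (-0.36, adjusted p = 0.0321), with the GC offset (-0.31, 0.0264) and with only the groups compared (-0.35, 0.0225). It was called lower in OE33 shAPE1#3 under the last 2 of these (-0.33, 0.0465 and -0.4, 0.0225), and in shAPE1#1 without its unexposed replicate 2 (-0.42, 0.031). Also called lower with ABS were WFS1 in FLO1 shAPE1#1 with only the groups compared (-0.25, 0.0217) and ERO1A in FLO1 shControl without ABS replicate 1 (-0.39, 0.0396).

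Replicate numbers showed no pairing of the libraries. This was seen in each library's deviation from its group mean, correlated between libraries of different groups. Same-numbered libraries gave -0.288 to 0.0947 in FLO1 (median -0.0117) and -0.198 to 0.0869 in OE33 (median 0.00977). Differently numbered ones had medians of 0.000833 in FLO1 and 0.0013 in OE33. With the replicate block, ABS gave 14, 11 and 13 members in FLO1 and 14, 12 and 11 in OE33. Low levels, as for DERL3 (at most 0.249 CPM) and ERO1B (at most 1.72 CPM) in OE33, limit what could be detected.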
